A study of Rattus norvegicus with 8 samples.

Results

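The genes described here write, read or erase methyl groups on DNA, histones, other proteins and RNA. They were chosen by name: 46 genes were listed, and a gene was taken up if a probe that is no control carried its symbol on the array. Of the 46, 41 had at least 1 probe, 52 probes in all, among 26456 gene labels on the array. Kdm1a, Kdm5a, Mbd4, Setd8 and Suz12 had no probe under these names. Testing needed a signal well above background in 4 or more of the 8 livers, which 31 of the 41 genes had, and the background for every count below is the 14931 genes tested in the same fit.

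The livers came from 8 Wistar rats aged 21 days, at weaning. In the methyl donor deficient group, 4 pups were born to dams whose food lacked vitamin B12 and folates, and in the control group 4 pups were born to dams on standard food. Dams were on the food from before pregnancy until weaning, so the pups were exposed through the dam. Deficient replicates 2 and 4 and control replicate 1 were male, and the other animals were female. Dams and litters are not given in the sources used here, so some pups may share a dam, and a p-value cannot speak for litters beyond these animals. The fit shares variance and 1 array correlation over all genes tested, so a p-value does not rest on the spread of its own gene alone.

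Each of 4 2-colour Agilent arrays held 1 deficient and 1 control liver in opposite dyes. Array 1 paired deficient replicate 3 with control replicate 1, array 2 deficient 1 with control 3, array 3 deficient 4 with control 2, and array 4 deficient 2 with control 4. Median spot signals lay between 152.5 and 299 over median backgrounds of 33 to 58, and between 59.1% and 65.5% of spots were well above background. All 8 hepatocyte markers (Alb, Apoa1, Ttr and others) were well above background in every liver, so the labelled tissue carried its defining transcripts. Each difference is on the log2 scale, deficient liver minus control liver, and ± gives its standard error in the limma fit over 4 animals per group, and adjusted p-values are limma's with Benjamini-Hochberg adjustment over all 14931 genes. Levels are log2 normalized intensities, which compare animals for 1 probe and not 1 gene with another.

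Methyltransferases take the methyl group from S-adenosylmethionine, which the folate and methionine cycles regenerate with vitamin B12 as a cofactor. The enzymes release S-adenosylhomocysteine, which inhibits many of them. In mammals, maintenance methylation copies CpG marks after DNA replication, and the de novo enzymes set them during development. Oxidation by TET proteins followed by base excision removes them. Histone methylation marks active or silent chromatin according to the residue, and m6A and m5C are methyl marks on RNA.

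Because the CpG dinucleotide is the site that the DNA methyltransferases act on and the MBD proteins bind, the upstream sequence of 4 members is shown, 250 bases before the gene start. Nsun2 is shown because it passed the test. Smyd3, the other gene that passed, and Dnmt3b matched no entry of the promoter table used and are not shown. Also shown are Dnmt3a, Mbd2 and Tdg, because they set, bind or help to remove CpG methylation and had an unadjusted p under 0.05 with the deficient livers higher. Sequences are from RefSeq on build GRCr8, read 5′ to 3′ on the strand of the gene, with every CG in capitals. Methylation itself was not measured in these files.
Nsun2 (chr1:35514307-35514556, minus strand): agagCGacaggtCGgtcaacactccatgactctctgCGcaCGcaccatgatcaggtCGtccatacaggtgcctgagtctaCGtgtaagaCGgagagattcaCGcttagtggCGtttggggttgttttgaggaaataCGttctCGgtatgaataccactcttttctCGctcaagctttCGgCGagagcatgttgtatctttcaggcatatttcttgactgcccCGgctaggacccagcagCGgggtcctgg
Dnmt3a (chr6:32598352-32598601, plus strand): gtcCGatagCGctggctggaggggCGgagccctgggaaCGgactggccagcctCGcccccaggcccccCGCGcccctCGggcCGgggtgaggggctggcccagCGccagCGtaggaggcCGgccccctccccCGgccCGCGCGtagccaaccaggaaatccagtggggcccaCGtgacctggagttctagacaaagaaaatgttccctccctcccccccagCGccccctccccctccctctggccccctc
Mbd2 (chr18:66449108-66449357, plus strand): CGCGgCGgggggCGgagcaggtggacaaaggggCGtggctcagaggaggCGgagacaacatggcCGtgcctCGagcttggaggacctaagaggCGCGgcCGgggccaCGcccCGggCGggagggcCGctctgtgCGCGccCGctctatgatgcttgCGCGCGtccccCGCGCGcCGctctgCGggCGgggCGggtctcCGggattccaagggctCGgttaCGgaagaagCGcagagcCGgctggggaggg
Tdg (chr7:22985101-22985350, minus strand): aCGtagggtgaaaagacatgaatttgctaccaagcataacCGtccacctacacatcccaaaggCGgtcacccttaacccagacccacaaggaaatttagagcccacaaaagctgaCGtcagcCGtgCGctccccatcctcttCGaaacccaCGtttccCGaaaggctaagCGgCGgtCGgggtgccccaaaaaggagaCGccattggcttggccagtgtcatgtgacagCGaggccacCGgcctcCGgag
RefSeq's gene spans reach further upstream for all 4 genes, so the start used is that of 1 transcript and not the outermost. The 4 sequences hold 16, 18, 33 and 16 CG, in the order printed. RefSeq promoters were found for 39 of the 46 genes, 49 promoters in all since some genes have several starts. Their median was 18 CG in 250 bases, against 5 over all 33465 promoters of the table. The ratio of observed to expected CG was at least 0.6 in 75.5% of the promoters of these genes and in 33% of all promoters. The table of all promoters includes genes of every biotype, and no test was made of this difference.

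Of the 31 genes tested, 2 were called for diet at an adjusted p under 0.05 (6.45%), against 1658 of all 14931 genes (11.1%). Smyd3 rose (1 of 31, against 4.53% of all genes rising) and Nsun2 fell (1 of 31, against 6.58% of all genes falling) in deficient livers, and the other 29 were not called. The share called was thus not above that of the whole array. Neither call held with array as a fixed term, which pairs the livers of an array, with sex added or with no dye term. Both were also lost when spots in very high local background, left out here, were kept. Limma adjusted p was then 0.07 for Smyd3 and 0.0561 for Nsun2, and 954 of all genes were called. In the fit as reported, 10 of 31 genes (32.3%) had an unadjusted p under 0.05, against 27.6% of all genes. Of the 10, 5 were higher and 5 lower in deficient livers. The median difference over the 31 genes was 0.01, with 16 above and 15 below 0, and over all genes it was 0.01 as well. The median absolute difference was 0.16 over these genes and 0.14 over all genes.

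The 95% intervals of all 31 genes lay inside a 2-fold change in either direction, and those of 26 genes lay inside a log2 difference of 0.5. In 4 genes the values of the deficient and control livers did not overlap (Dnmt3a, Mbd2, Mettl3 and Nsun2), against 11.4% of all genes. In 10 genes the difference had the same direction on all 4 arrays, against 27.2% of all genes. These were Dnmt3a, Tdg, Mbd2, Ezh1, Mettl3 and Mettl14, higher in the deficient liver, and Ezh2, Eed, Kdm2a and Nsun2, lower.

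**Figure D1:**
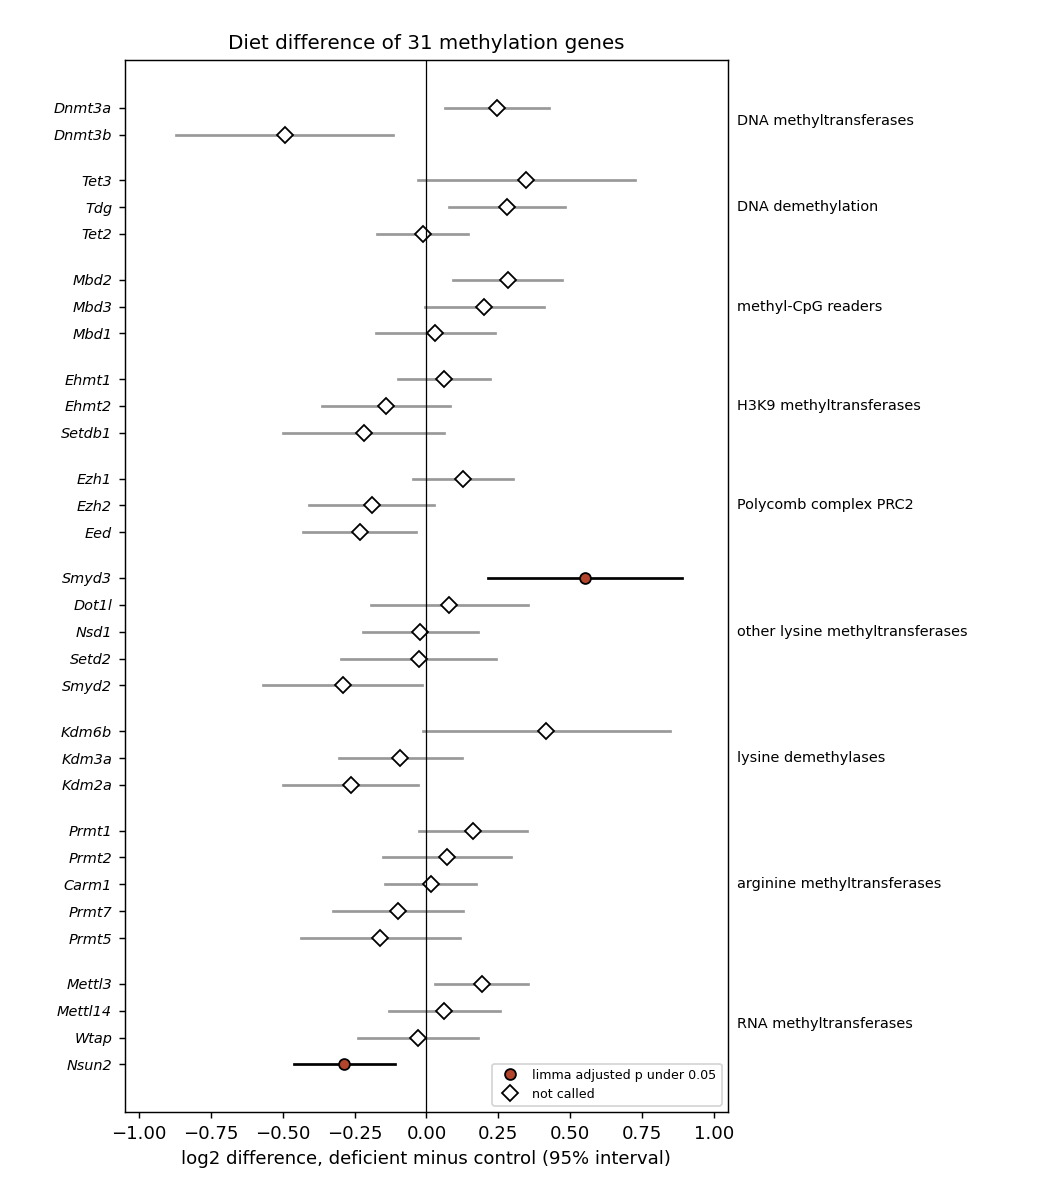
Fitted log2 difference, deficient minus control, of the 31 genes tested (x axis), grouped by role, with 95% intervals as bars and 4 animals in each group. Filled circles mark the 2 genes called by limma, Smyd3 at 0.55 and Nsun2 at -0.29, and open diamonds the 29 not called.

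Among the DNA methyltransferases, 2 of 4 could be tested, and both are de novo enzymes that set new CpG marks. Dnmt3a had log2 levels of 7.76, 7.59, 7.61 and 7.70 in deficient replicates 1 to 4, against 7.56, 7.34, 7.48 and 7.31 in control replicates 1 to 4. Every deficient liver lay above every control, though deficient replicate 2 and control replicate 1 were only just apart. The difference of 0.25 ± 0.08 (95% interval 0.07 to 0.43) did not pass the test (limma adjusted p = 0.0831).

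Dnmt3b gave 8.57, 8.51, 9.44 and 8.48 in deficient replicates 1 to 4, against 9.32, 9.29, 9.32 and 9.04 in the controls. Of the deficient livers 3 lay below all controls and deficient replicate 3 lay above them all, so the groups overlapped. The difference of -0.49 ± 0.17 (interval -0.87 to -0.12) was not called (limma adjusted p = 0.0927). Without deficient replicate 3 it was -0.74 and was called (limma adjusted p = 0.00352), and without array 1, which holds that animal, it was -0.73 (limma adjusted p = 0.0121). Without array 3 it was -0.26 (limma adjusted p = 0.527). With loess as the only normalization it was -0.49 and was called (limma adjusted p = 0.0367). This probe lies on rn4 chr3:144069022-144069081, and a second Dnmt3b probe 5′ of it, at chr3:144060143-144060202, did not pass the filter on dim signals.

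Dnmt1, which copies methylation after replication, and Dnmt3l, a cofactor of the de novo enzymes without catalytic activity, were not well above background in any of the 8 livers. Log2 signals of the Dnmt1 probe lay between 6.05 and 6.51 and those of Dnmt3l between 5.96 and 6.12. Each has 1 probe, which did not pass the filter on dim signals, so no difference is given for them.

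Of the 4 genes of DNA demethylation, 3 were tested and none was called. Tdg, the glycosylase that excises oxidised 5-methylcytosine, gave 9.86, 10.15, 9.93 and 9.79 in deficient replicates 1 to 4, against 9.82, 9.58, 9.68 and 9.54 in the controls. Only deficient replicate 4 and control replicate 1 crossed between the groups. The difference was 0.28 ± 0.09 (interval 0.08 to 0.48, limma adjusted p = 0.077). It was called in 2 of 12 fits with an animal or an array left out. These were without deficient replicate 1, at 0.36 (limma adjusted p = 0.0295), and without array 2, at 0.39 (limma adjusted p = 0.0453). The highest limma adjusted p of the 12 fits was 0.39.

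Tet3, a dioxygenase that oxidises 5-methylcytosine, had 9.38, 8.55, 8.83 and 8.56 in deficient replicates 1 to 4 and 9.02, 8.22, 8.41 and 8.28 in the controls. Deficient replicate 1 and control replicate 1 stood above the other animals of their groups. The difference of 0.35 ± 0.17 was not called (interval -0.03 to 0.73, limma adjusted p = 0.216). It was called in 1 of 12 fits with an animal or an array left out, that without deficient replicate 2, at 0.52 (limma adjusted p = 0.0347). It was 0.18 without deficient replicate 1 and 0.17 without array 2, and the highest limma adjusted p of the 12 fits was 0.691. Tet2 lay at -0.01 ± 0.07 (interval -0.17 to 0.15), and a second Tet2 probe that overlaps the first lay at -0.05. The Tet1 probe was not well above background in any liver.

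All 3 measured methyl-CpG binding proteins had fitted differences above 0 and none was called. Mbd2, which recruits the NuRD co-repressor complex to methylated DNA, gave 11.72, 12.06, 11.74 and 11.79 in deficient replicates 1 to 4, against 11.57, 11.47, 11.53 and 11.60 in the controls. The groups did not overlap, and deficient replicate 2 was the highest. Its probe is printed in 10 spots per array, and the difference was 0.28 ± 0.08 (interval 0.09 to 0.47, limma adjusted p = 0.0627).

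Over 27 other settings Mbd2 was called in 3, and its limma adjusted p ran from 0.0286 to 0.407. Of 12 fits with an animal or an array left out, 1 reached the call. It was that without deficient replicate 1, at 0.35 (limma adjusted p = 0.0297). The call was also reached with sample weights and in the authors' deposited normalized table, from which a fit gave 0.32 (limma adjusted p = 0.041).

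Mbd3, a NuRD subunit that in mammals binds methylated CpG poorly, had 9.81, 10.19, 10.37 and 10.50 in deficient replicates 1 to 4, against 9.90, 10.02, 9.96 and 10.18 in the controls. Deficient replicate 1 was the lowest of all 8 animals and the other deficient livers were the highest. Its difference was 0.20 ± 0.09 (limma adjusted p = 0.191). Mbd1 lay at 0.03 ± 0.09. Uhrf1, which brings Dnmt1 to newly replicated DNA, was not well above background in any liver, with log2 signals of 6.45 to 6.72.

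**Figure D2:**
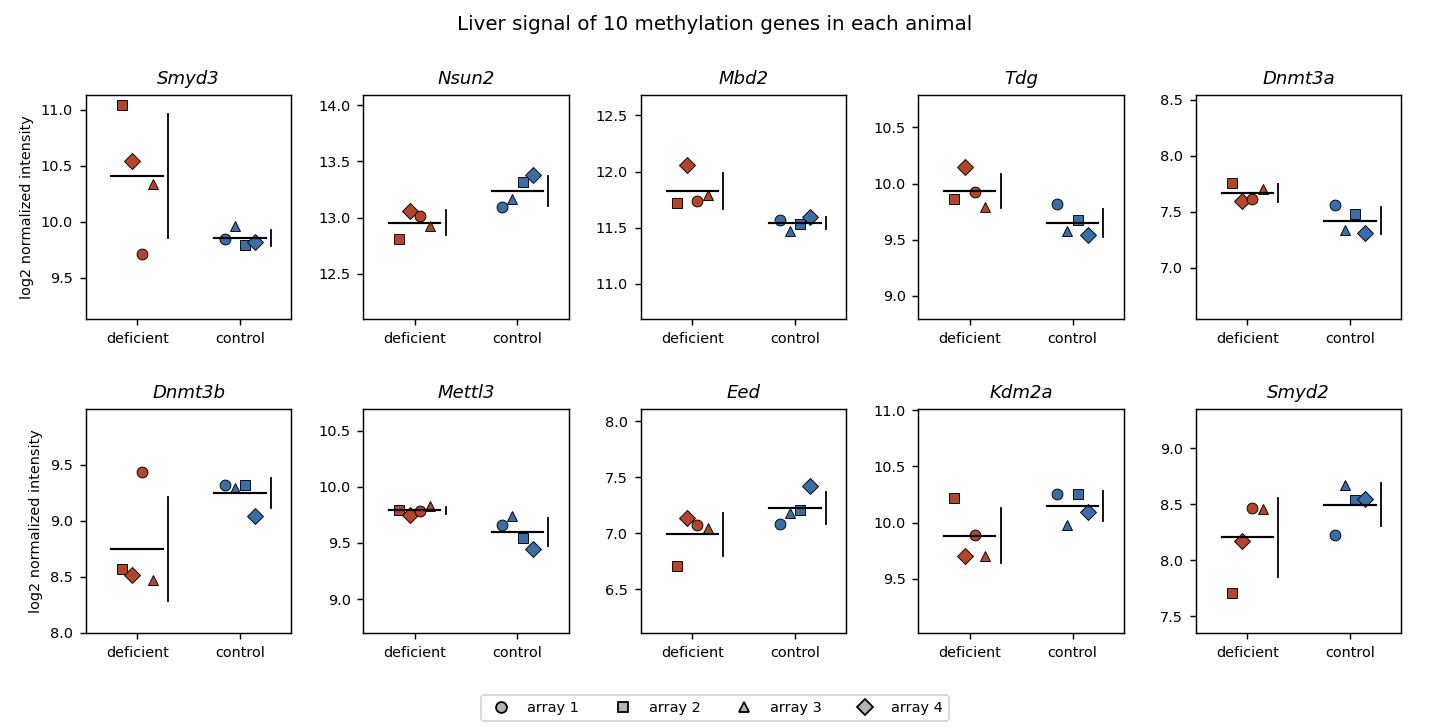
Log2 normalized intensity (y axis, a span of 2 log2 units in each panel) of the 10 genes with an unadjusted p under 0.05, in 4 deficient and 4 control livers. Marker shapes give the array, horizontal lines the group means and vertical bars ± 1 SD. For Smyd3 and Dnmt3b, deficient replicate 3, on array 1, lies on the opposite side of the controls from the other 3 deficient livers.

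Of the 5 methyltransferases for lysine 9 of histone H3, a mark of silent chromatin, 3 were tested and none was called. Setdb1 gave 6.92, 6.81, 7.64 and 7.11 in deficient replicates 1 to 4, against 7.27, 7.39, 7.26 and 7.43 in the controls. Deficient replicate 3 was the highest animal and the other 3 deficient livers were the lowest, as for Dnmt3b. The difference was -0.22 ± 0.12 (limma adjusted p = 0.292), and without deficient replicate 3 it was -0.37 and was called (limma adjusted p = 0.0445). Without array 3 it was -0.06 (limma adjusted p = 0.911).

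Ehmt2, which with Ehmt1 forms the G9a and GLP dimer, had 8.48, 8.81, 9.09 and 8.92 in deficient replicates 1 to 4, against 8.95, 9.07, 8.86 and 8.99 in the controls. Deficient livers 1 and 2 were the lowest and deficient replicate 3 the highest, so the groups overlapped. The difference was -0.14 ± 0.10 for Ehmt2 and 0.06 ± 0.07 for Ehmt1, whose probe is also printed in 10 spots. Suv39h1, with 3 probes, and Suv39h2, with 1, were not well above background in any liver.

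Polycomb repressive complex 2 methylates lysine 27 of histone H3, with Ezh1 or Ezh2 as its catalytic subunit and Eed as the subunit that binds the mark. Eed and Ezh2 were lower, and Ezh1 higher, in the deficient liver of all 4 arrays, but none of the 3 genes was called. Eed gave 6.71, 7.14, 7.08 and 7.04 in deficient replicates 1 to 4, against 7.08, 7.18, 7.21 and 7.42 in the controls. The groups overlapped, since control replicate 1 lay below deficient replicate 2, and the probe was well above background in 2 deficient and 4 control livers.

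For Eed the difference was -0.23 ± 0.09 (interval -0.43 to -0.03, limma adjusted p = 0.125). It was called in 2 of 12 fits with an animal or an array left out. These were without deficient replicate 2, at -0.30 (limma adjusted p = 0.0267), and without array 4, at -0.29 (limma adjusted p = 0.0484). The highest limma adjusted p of the 12 fits was 0.515. The rn4 position in the files covers 29 bases of the 60-base probe, chr1:146563929-146563957.

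Ezh2 had 6.95, 7.40, 7.19 and 7.28 in deficient replicates 1 to 4, against 7.30, 7.29, 7.28 and 7.71 in the controls. Control replicate 4 stood above the rest and the groups overlapped. The differences were -0.19 ± 0.10 for Ezh2 (limma adjusted p = 0.235) and 0.13 ± 0.08 for Ezh1 (limma adjusted p = 0.32), both with intervals that include 0.

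Smyd3, a lysine methyltransferase with histone and cytoplasmic substrates, rose in deficient livers. Its log2 levels were 11.04, 10.54, 9.71 and 10.34 in deficient replicates 1 to 4, against 9.85, 9.96, 9.80 and 9.82 in control replicates 1 to 4. Deficient replicates 1, 2 and 4 lay above every control and deficient replicate 3 below every control. The SD was 0.55 in deficient livers and 0.07 in controls (n = 4 each).

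The difference in Smyd3 was 0.55 ± 0.15, a 1.47-fold level (interval 0.21 to 0.89, limma adjusted p = 0.0484). The gene was higher on 3 of 4 arrays, by 1.25 on array 2, 0.38 on array 3 and 0.72 on array 4, and was at -0.14 on array 1. The deficient liver was in Cy5 on arrays 2 and 4, which had the larger differences, and in Cy3 on arrays 1 and 3. The probe lies on rn4 chr13:94643777-94643836, minus strand, and was designed on transcript NM_001025762. The files do not place it in an exon or UTR.

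The call for Smyd3 was held in 4 of 12 fits with an animal or an array left out, those without deficient replicate 2 or 3, array 1 or array 4. It was lost without deficient replicate 1 (0.40, limma adjusted p = 0.0852), deficient replicate 4 (0.46, 0.195) and each of control replicates 1 (0.53, 0.158), 2 (0.47, 0.183), 3 (0.56, 0.184) and 4 (0.65, 0.0573). It was also lost without array 2 (0.42, 0.129) and array 3 (0.42, 0.35). All 12 differences were above 0. With array as a fixed term the difference was 0.55 (limma adjusted p = 0.099), and with sex added it was 0.55 (limma adjusted p = 0.111). With no dye term Smyd3 was not called.

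The 5 genes of the whole table whose levels were most like those of Smyd3 over the 8 livers were found by Pearson correlation. They were Ndufc1, a subunit of respiratory complex I (r = 0.986), Slc30a9, of the zinc transporter family (r = 0.985), B4gat1, a glucuronyltransferase (r = 0.981), and 2 probes without a gene symbol. The 8 points share the diet groups and the arrays, and no p is given.

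The other lysine methyltransferases were not called. Smyd2, which methylates histones and p53, had 7.71, 8.18, 8.47 and 8.46 in deficient replicates 1 to 4, against 8.22, 8.67, 8.54 and 8.55 in the controls. Deficient replicate 1 was the lowest and the groups overlapped through control replicate 1. The difference was -0.29 ± 0.12 (interval -0.57 to -0.01, limma adjusted p = 0.161).

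Dot1l, which methylates a lysine in the core of histone H3, lay at 0.08 ± 0.12 and a second probe of it at 0.09. Setd2 and Nsd1, both enzymes for lysine 36 of histone H3, lay at -0.03 ± 0.12 and -0.02 ± 0.09. The Setd7 probe was not well above background in any liver.

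Lysine demethylases remove these marks, and 3 of the 6 listed were tested with no call. Kdm2a, a demethylase of lysine 36 that binds unmethylated CpG islands, had 10.22, 9.70, 9.89 and 9.71 in deficient replicates 1 to 4, against 10.26, 9.98, 10.25 and 10.09 in the controls. It was lower in the deficient liver of every array, while deficient replicate 1 lay within the range of the controls. The difference was -0.26 ± 0.10 (interval -0.50 to -0.03, limma adjusted p = 0.138), and a second, dimmer probe, well above background in 6 livers, lay at 0.09. Without deficient replicate 1 the difference of the brighter probe was -0.37 and was called (limma adjusted p = 0.0255). That was the only call in 12 fits with an animal or an array left out, in which limma adjusted p reached 0.377.

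Kdm6b, which removes methyl groups from lysine 27 of histone H3, gave 9.75, 9.05, 8.995 and 8.90 in deficient replicates 1 to 4, against 9.57, 8.47, 8.56 and 8.43 in the controls. Deficient replicate 1 and control replicate 1 were the highest animals of their groups, as for Tet3. The difference of 0.42 ± 0.19 was not called (interval -0.01 to 0.85, limma adjusted p = 0.193), and was 0.28 without array 2 and 0.17 without array 3. Kdm3a lay at -0.09 ± 0.09. Kdm4a was well above background in 1 liver, a deficient one, and was not tested.

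Protein arginine methyltransferases had no call. Of 7 listed, 5 were tested, 0 had an unadjusted p under 0.05, and the fitted differences ran from -0.16 to 0.16. Prmt1, the main enzyme for asymmetric arginine dimethylation, had 11.49, 11.33, 11.16 and 11.49 in deficient replicates 1 to 4, against 11.22, 11.34, 11.24 and 11.03 in the controls. The groups overlapped, and the difference was 0.16 ± 0.08 (interval -0.03 to 0.35, limma adjusted p = 0.246).

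Prmt5, the main enzyme for symmetric dimethylation, had 7.65, 8.19, 8.41 and 8.37 in deficient replicates 1 to 4, against 8.16, 8.51, 8.21 and 8.37 in the controls. Deficient replicate 1 was the lowest of all, and the difference was -0.16 ± 0.12 (interval -0.44 to 0.12). Carm1 lay at 0.01 ± 0.07, Prmt2 at 0.07 ± 0.10 with 5 livers well above background, and Prmt7 at -0.10 ± 0.10. Prmt3 was well above background in 3 livers and Prmt6 in 2, so neither was tested.

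Among the 4 RNA methylation genes, Nsun2 fell in deficient livers. It methylates cytosine in tRNAs and other RNAs. Its log2 levels were 12.81, 13.06, 13.01 and 12.92 in deficient replicates 1 to 4, against 13.09, 13.16, 13.32 and 13.38 in control replicates 1 to 4. Every deficient liver lay below every control, with deficient replicate 2 and control replicate 1 nearly level. The difference was -0.29 ± 0.08, a level of 0.82 times the control (interval -0.46 to -0.11, limma adjusted p = 0.0494), and it was lower on all 4 arrays, by -0.08, -0.51, -0.24 and -0.32 on arrays 1 to 4. The probe lies on rn4 chr17:3822628-3822687, minus strand, designed on NM_001108403, and the files do not place it in an exon or UTR. RefSeq pairs that transcript with Nsun2 on chromosome 1 of GRCr8, where the upstream sequence above was read, so the chromosome differs between the builds, and the cause was not tested.

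The call for Nsun2 was held in 2 of 12 fits with an animal or an array left out, those without deficient replicate 2 and without array 4. It was lost without deficient replicates 1 (-0.25, limma adjusted p = 0.0786), 3 (-0.30, 0.083) and 4 (-0.25, 0.205). It was lost without control replicates 1 (-0.32, 0.118), 2 (-0.27, 0.166), 3 (-0.27, 0.221) and 4 (-0.29, 0.115). It was also lost without arrays 1 (-0.33, 0.112), 2 (-0.24, 0.145) and 3 (-0.25, 0.34), and all 12 differences were below 0. With array as a fixed term the difference was -0.29 (limma adjusted p = 0.145) and with sex added -0.28 (limma adjusted p = 0.123). With loess as the only normalization it was -0.29 (limma adjusted p = 0.106), and with no dye term Nsun2 was not called.

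Mettl3, the catalytic subunit of the m6A writer, gave 9.79, 9.75, 9.79 and 9.83 in deficient replicates 1 to 4, against 9.66, 9.74, 9.55 and 9.45 in the controls. The groups did not overlap, with deficient replicate 2 and control replicate 2 only just apart, and the deficient livers were close together (SD 0.03, against 0.13 in controls, n = 4 each). The difference was 0.19 ± 0.07 (interval 0.03 to 0.35, limma adjusted p = 0.119). Its partners in the complex were near 0, Mettl14 at 0.06 ± 0.09 and Wtap at -0.03 ± 0.09, with a second Wtap probe at -0.09.

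The probes of Smyd2, Mettl3, Kdm6b and Prmt7 are shown as examples of what was hybridised, since their 60 bases map to rn4 in parts separated by a gap and not as 1 block of genomic DNA. The sequences are the deposited probes, 5′ to 3′, in lower case throughout.
Smyd2 (chr13:106165868-106167676, minus strand): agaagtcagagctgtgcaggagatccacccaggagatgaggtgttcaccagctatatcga
Mettl3 (chr15:27745333-27745690, minus strand): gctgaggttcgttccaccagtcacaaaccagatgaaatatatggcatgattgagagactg
Kdm6b (chr10:56194547-56194690, minus strand): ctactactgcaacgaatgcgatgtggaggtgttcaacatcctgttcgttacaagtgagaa
Prmt7 (chr19:36106246-36107394, plus strand): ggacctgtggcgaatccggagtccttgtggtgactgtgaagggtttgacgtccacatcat
They span 1809, 358, 144 and 1149 bases of rn4, in the order printed.

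The 4 arrays did not carry these differences equally. The SD of the differences within an array over the 31 genes was narrowest on array 1 at 0.21 and widest on array 2 at 0.50, with 0.27 for array 3 and 0.33 for array 4. Over all genes it was 0.31, 0.57, 0.40 and 0.42 for arrays 1 to 4, in which array 1 and array 2 again mark the ends. Medians over the 31 genes lay between -0.01 and 0.06 on each array.

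**Figure D3:**
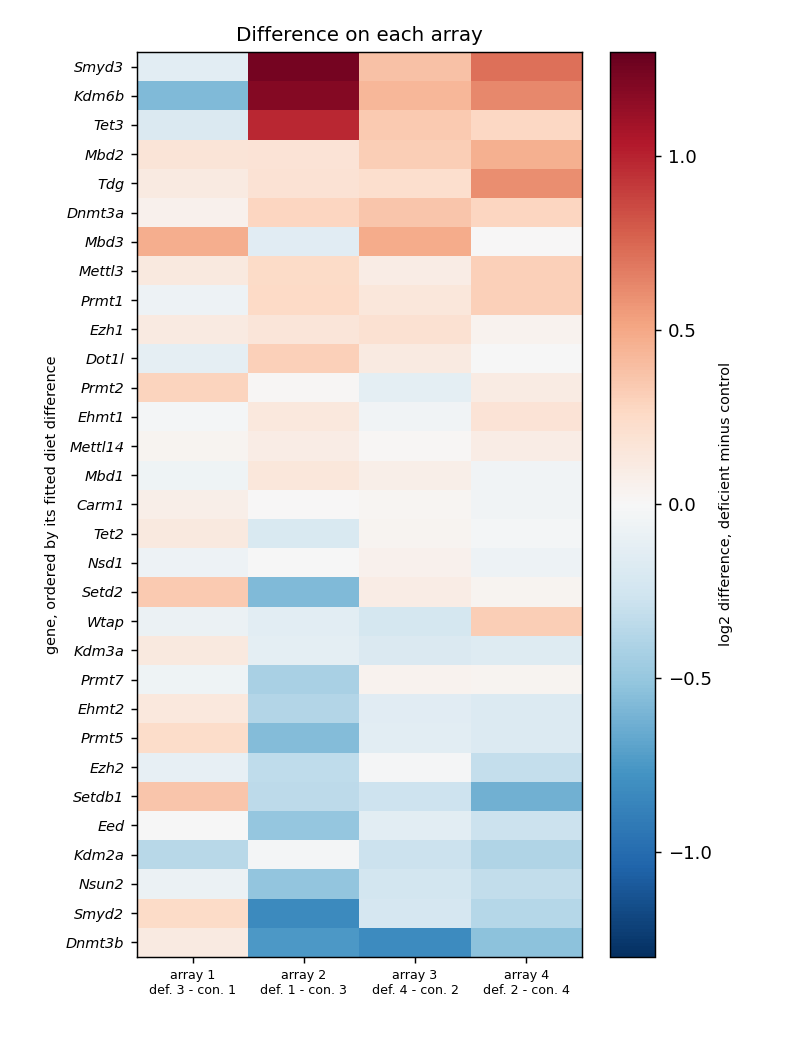
Log2 difference, deficient minus control, of the 31 genes (rows, ordered by fitted diet difference) on each of the 4 arrays (columns, with the animals each compares). Array 2 holds the widest differences, among them Smyd3 at 1.25. On array 1 Smyd3, Kdm6b, Dnmt3b, Tet3, Ehmt2, Setdb1, Smyd2, Kdm3a, Prmt1 and Prmt5 have the opposite sign to the other 3 arrays.

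Other genes of the same kind were read from a list chosen with earlier results of these data known. Of 59 further methylation genes measured, 1 rose and 1 fell (3.39% called, against 11.1% of all genes), with a median of -0.03. Phf1, a Polycomb-associated protein, rose by 0.33 ± 0.08 (limma adjusted p = 0.036), and Kdm5b, a demethylase of lysine 4 of histone H3, fell by 0.47 ± 0.12 (limma adjusted p = 0.0421). Without deficient replicate 2 the counts were 3 rising and 7 falling and without array 4 they were 1 and 5. Without control replicate 4, 2 fell and 0 rose. Without deficient replicate 3, 1 fell and 0 rose. In the other 8 fits with an animal or array left out both counts were 0.

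Of 22 genes that supply or use S-adenosylmethionine, 6 fell and 0 rose, against 6.58% of all genes falling, and the median was -0.25. They were Gamt, which makes creatine (-0.88 ± 0.16), Adk, which removes adenosine (-0.47 ± 0.09), Bhmt2 (-0.70 ± 0.14) and Bhmt (-0.85 ± 0.21), which remethylate homocysteine, Ahcy, which hydrolyses S-adenosylhomocysteine (-0.51 ± 0.11), and Pemt, which makes phosphatidylcholine (-0.69 ± 0.18). Their limma adjusted p-values lay between 0.0123 and 0.0432. Of the 22 genes, 17 had fitted differences below 0 and 5 above. The widest difference of the list was above 0, Nnmt at 1.01 ± 0.29, and was not called (limma adjusted p = 0.0582). The number falling was 0 without deficient replicate 4, control replicate 2, control replicate 3 or array 3. It was 1 without control replicate 1, 3 without array 2 and 4 without array 1, and otherwise 5 to 7. Without deficient replicate 3 and without array 1, 1 gene rose. The number falling was 0 with array as a fixed term, with no array term and in females only. It was 3 with sex added, with no dye term and with processed signals.

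Several machinery genes, Uhrf1, Dnmt1 and Ezh2 among them, are known to follow cell division, so a list of DNA replication and mitosis genes was read beside them. Of 33 measured genes 12 fell and none rose, against 6.58% of all genes falling, and the median was -0.50. Those with the smallest p-values were Tk1 (-0.85 ± 0.15), Aurka (-0.90 ± 0.16), Prim1 (-0.86 ± 0.16) and Aurkb (-0.52 ± 0.10), at limma adjusted p-values of 0.0101 to 0.0133. The summed intensity of the list ranged from 21173 to 39477 in deficient livers and from 37133 to 57826 in controls. The number falling was 0 without deficient replicate 4, control replicate 3 or array 3. It was 1 and 2 without control replicates 1 and 2, 4 to 6 without array 2, array 1 or control replicate 4, 22 and 23 without array 4 and deficient replicate 2, and otherwise 10 or 11. It was 0 with no array term and in females only, 4 with array as a fixed term or with no dye term, and 6 with sex added or with processed signals. The part of cell division in the values of the methylation genes was not tested.

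Markers of other cells moved with diet in part, and fewer cells of a type cannot be told apart from less RNA per cell in whole liver. Of 8 hepatocyte markers 4 fell and 0 rose, against 6.58% of all genes falling and 4.53% rising. Fitted differences were below 0 in 6 of them. Apoa1 at 0.35 ± 0.15 and Apob at 0.24 ± 0.15 went the other way, neither called (limma adjusted p = 0.169 and 0.355). Summed hepatocyte intensity was 825683 to 1202390 in deficient livers and 1301170 to 1574370 in controls. Of 4 measured neutrophil markers 3 fell, against 6.58% of all genes falling (sums of 1059 to 1711 in deficient livers against 1604 to 2411 in controls). Of 4 measured skeletal muscle markers Tnnc2 rose, against 4.53% of all genes rising, and the others were not called. Tnnc2 was at log2 10.24 to 11.43 in deficient livers and at 7.46 to 8.31 in controls. Muscle sums, which include it, were 1857 to 9449 in deficient livers against 734 to 1155 in controls. For Smyd3, Dnmt3b and Setdb1, deficient replicate 3 and the other deficient livers lay on opposite sides of the controls. Of these genes only Dnmt3b is flagged below for a value of that animal far from its group. The same animal was the highest of the 8 livers for all 4 muscle markers. Myl11, a fast muscle myosin light chain, was at log2 11.65 in it, at 6.86 to 7.78 in the other deficient livers and at 6.89 to 8.21 in controls. Tnni2, a fast muscle troponin, was at 11.50 in it, at 8.04 to 8.58 in the other deficient livers and at 8.01 to 8.71 in controls. None of 6 erythroid, 9 Kupffer cell, 2 lymphocyte and 4 endothelial markers was called by limma, of which 2, 0, 0 and 1 had an unadjusted p under 0.05. Fitted differences were below 0 in all 6 erythroid markers, with a median of -0.47. They were below 0 in 4 of the Kupffer cell, 2 of the lymphocyte and 2 of the endothelial markers. The summed erythroid intensity was 211395 to 569522 in deficient livers and 466071 to 824667 in controls, and Epb42, Ermap, Gata1, Klf1 and Rhag were too dim to test. The part of these cells in the values of the methylation genes was not tested.

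**Figure D4:**
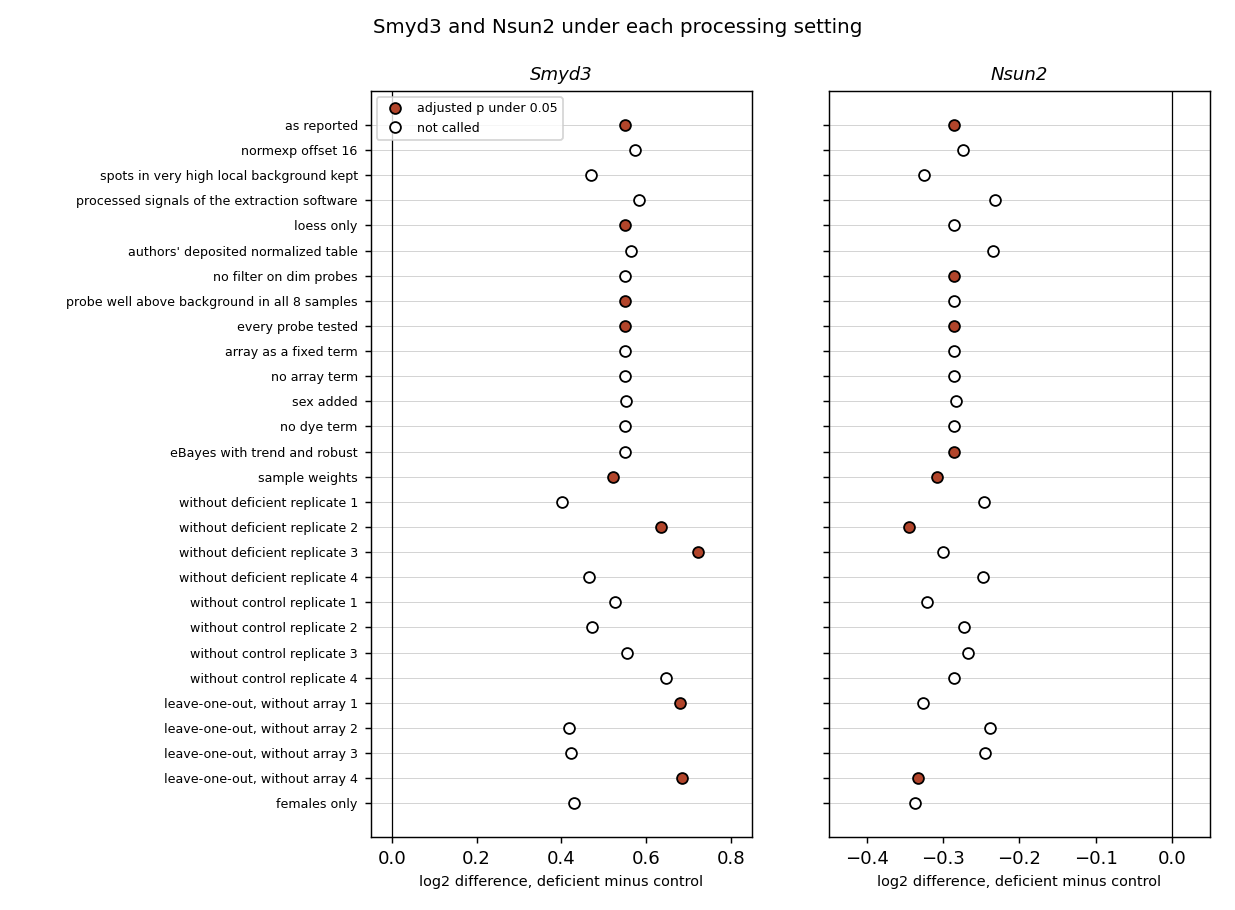
Log2 difference, deficient minus control, of Smyd3 and Nsun2 (x axes) as reported and under 27 other settings (rows), filled where limma's adjusted p was under 0.05. Smyd3 stays between 0.40 and 0.72 and Nsun2 between -0.34 and -0.23, and they were called in 8 and 6 of the 27 settings.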

How the data were processed

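RNA of 8 rat livers was read on 4 2-colour Agilent arrays of 1 slide. Spot intensities were extracted with Agilent Feature Extraction 10.7.1.1 on build rn4, per the file headers and the submitters' processing notes. A deposited table of the authors' normalized intensities served as an alternative, and how it was normalized is unknown here. Samples were put on the same array where their deposited files were identical.

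Intensities were analysed with limma 3.58.1 in R 4.3.3. Spots with local background over 5 times the channel's median (74 spot values) were left out, mean signals were corrected by normexp (offset 50), and loess and Aquantile normalized them. Spots marked as outliers were dropped, spots of a probe averaged, probes kept if well above background in at least 4 of 8 samples, and the brightest probe stood for its gene. No spot was saturated, and the number of arrays limits the precision. Symbols of 3795 probes were updated through the RefSeq table (GRCr8). Diet was fitted with dye as a term and array as a random block (correlation 0.422). The fit was run on simulated data, with equal spread in both groups and planted changes wider than those of Smyd3 and Nsun2. That run does not speak for differences as small as theirs or for groups of unequal spread.

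Genes given in every animal were those with an unadjusted p under 0.05 and the 2 smallest p-values of each role. Up to 4 called genes were named of each other list, and all 6 of the S-adenosylmethionine list, the last 2 of them chosen after their values were seen. The differences of Nnmt, Apoa1 and Apob, which were not called, were also given after their values were seen. Members, lists and the background limit were chosen with earlier results of these data known.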

Additional observations from a re-analysis of the deposited data

Results flagged for a closer look

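In each group of 4 livers, the animal farthest from the rest was set against the range of its group for the 31 genes, 62 tests in all, of which chance marks about 1 in 20. There were 4 such animals. Dnmt3b was at log2 9.44 in deficient replicate 3, with the other deficient livers at 8.48 to 8.57, and at 9.04 in control replicate 4, with the other controls at 9.29 to 9.32. Ezh2 was at 7.71 in control replicate 4, with the other controls at 7.28 to 7.30. Kdm6b was at 9.57 in control replicate 1, the male control, with the other controls at 8.43 to 8.56. In the deficient group, Kdm6b was at 9.05 and 8.90 in male replicates 2 and 4. It was at 9.75 and 8.995 in female replicates 1 and 3.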

How the results depend on the processing

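Over 27 alternatives no gene's called difference turned sign, and the share of the 31 genes called was below the share of all genes called in 26 of them, the exception being sample weights. The number of these genes called was 0 with normexp offset 16, with high-background spots kept, with the extraction software's processed signals, with array fixed, with no array term, with sex added, without the dye term and in females only. It was 1 with the authors' deposited normalized table, without a filter on dim probes, with probes well above background in all 8 samples and with trend and robust moderation, and 6 with sample weights (Dnmt3b, Kdm2a, Mbd2, Mbd3, Nsun2 and Smyd3). With an animal or array left out it was 0 to 4. The number of all genes called was 954 with high-background spots kept, 1085 with processed signals, 453 with array fixed, 399 with no array term, 811 with sex added, 839 without dye and 50 in females only, and 212 to 3548 with an animal or array left out. The median over these genes was 0.0506 with processed signals and 0.0599 in females only, and ran from -0.01 to 0.03 with an animal or array left out. Of 862 values of single genes, 34 changed sign without a call on either side, 40 lost a call and 16 gained one. The cause of these changes was not tested. Replicate numbers follow the order of the samples and pair no animals, so the paired analysis is the one by array, given above as array fixed, in which 0 of these genes and 453 of all genes were called. With loess as the only normalization the number called was 2, Dnmt3b and Smyd3, without Nsun2. Genes with 0 to 3 livers well above background have no measured difference here.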

Other observations

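A further Nsd1 probe, on rn4 chr17:15362523-15362582, was high on arrays 1 and 2 in both groups. Its log2 levels on array 1 were 8.34 in deficient replicate 3 and 8.52 in control replicate 1. On array 2 they were 8.36 in deficient replicate 1 and 8.002 in control replicate 3. On array 3 they were 7.52 in deficient replicate 4 and 7.59 in control replicate 2, and on array 4 they were 7.46 in deficient replicate 2 and 7.49 in control replicate 4. The difference by diet was 0.02 ± 0.19. The brightest Nsd1 probe lay between 9.27 and 9.67 in the 8 livers.

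A probe labelled Kdm1, whose accession RefSeq pairs with Kdm1a, a demethylase of lysine 4 of histone H3, was not a member by its label. It gave 8.49, 8.77, 9.16 and 8.99 in deficient replicates 1 to 4, against 9.01, 9.05, 8.98 and 8.89 in the controls. The difference was -0.13 ± 0.10 (limma adjusted p = 0.441), with deficient replicate 1 the lowest and deficient replicate 3 the highest of the 8 animals.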
